A study of Mus musculus with 12 samples.

Results

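A total of 933 H3K4me3 peaks of mouse small-intestinal crypts had no H3K4me3 counterpart in villi, out of 16489 peaks in the crypts list. They were selected on the deposited peak calls themselves: a crypts H3K4me3 peak was kept if it shared no base with a villi H3K4me3 peak and none with a crypts H3K27me3 peak. The first condition left 1101 peaks, and the second removed 168 of these. The 933 peaks were 5.66% of the list, and they are called crypts-only peaks here, a name for the calls in 1 library per compartment and not for a proven absence in villi. The H3K4me3 calls and the crypts H3K27me3 calls made the choice, so that their values are given as a description. H3K4me1, villi H3K27me3, H3K9me3, position in genes and DNA sequence were not used by the choice.

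The series holds ChIP-seq of 5 histone H3 marks and an input from crypts and from villi, 1 library for each mark and compartment, and it accompanied work on proteolytic cleavage of the H3 tail in villi. That study reported H3K4me3 at nearly the same sites in both compartments. Its spike-in-normalised intensity was lower in villi, which the study attributed to cleavage. Both compartments came from the small intestine of mice with no genotype or treatment in the labels. Villi were scraped off the opened intestine and crypts were released from the remaining tissue with EDTA. Both fractions are mixtures of cell types, and strain, age, sex and the number of animals are not given in the sources used here. With 1 library per mark and compartment no test between compartments was possible. A site marked in fewer cells, a weaker mark per cell (loss of the tail included) and a less efficient library cannot be told apart.

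Trimethylation of lysine 4 on histone H3 (H3K4me3) marks nucleosomes around active or poised transcription start sites and is most abundant at CpG islands, where CXXC-domain proteins bring in the COMPASS family of methyltransferases. Monomethylation of the same residue (H3K4me1) flanks those promoters and covers enhancers, whereas H3K27me3 is laid down by the Polycomb complex PRC2 at silent genes. Crypts house the stem cells, the dividing progenitors and the Paneth cells of the intestine, and villi carry the differentiated enterocytes together with goblet and other mature cells.

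To show the DNA at crypts-only peaks, sequences are given from the mouse genome GRCm38.p6, to which the build of the peak lists (mm10) corresponds, written 5′ to 3′ on the gene's strand for promoters and on the plus strand for the other stretches. The first is the centre of the highest-scoring peak, inside the first part of Dmbt1 (chr7:131033762-131034061). The promoter windows of Kcnn4 (chr7:24370013-24370312, plus strand), Olfm4 (chr14:80000052-80000351, plus strand) and Tmsb15l (chrX:136976825-136977124, minus strand) were copied from RefSeq and run from 250 bases before to 50 after the start site. They stand for a strong start site peak, for the widest crypts-only peak, which begins within this window and covers 44 of its 300 bases, and for the strongest peak with H3K4me1 in crypts alone. The centre of the peak over the Arhgap24 start site (chr5:102481670-102481969) represents sites with H3K4me1 in villi alone, and that of the strongest peak away from coding start sites, nearest to Zbtb38 (chr9:96787162-96787461), the distal sites. The promoter of Hjurp (chr1:88277530-88277829, minus strand), under the highest-scoring shared peak that holds a RefSeq promoter window, is shown for contrast. Capitals mark CpG dinucleotides.
Dmbt1 peak centre: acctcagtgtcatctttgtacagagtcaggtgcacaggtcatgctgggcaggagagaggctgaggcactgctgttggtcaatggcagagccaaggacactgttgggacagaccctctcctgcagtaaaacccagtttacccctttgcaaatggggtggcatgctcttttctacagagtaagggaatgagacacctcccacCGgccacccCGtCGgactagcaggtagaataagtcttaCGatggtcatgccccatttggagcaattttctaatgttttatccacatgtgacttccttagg
Kcnn4 promoter: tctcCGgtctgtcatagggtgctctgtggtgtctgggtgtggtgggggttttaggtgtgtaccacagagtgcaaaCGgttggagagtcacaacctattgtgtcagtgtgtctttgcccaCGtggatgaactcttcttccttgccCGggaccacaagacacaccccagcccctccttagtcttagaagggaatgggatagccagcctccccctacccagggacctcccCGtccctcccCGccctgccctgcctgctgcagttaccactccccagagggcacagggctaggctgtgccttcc
Olfm4 promoter: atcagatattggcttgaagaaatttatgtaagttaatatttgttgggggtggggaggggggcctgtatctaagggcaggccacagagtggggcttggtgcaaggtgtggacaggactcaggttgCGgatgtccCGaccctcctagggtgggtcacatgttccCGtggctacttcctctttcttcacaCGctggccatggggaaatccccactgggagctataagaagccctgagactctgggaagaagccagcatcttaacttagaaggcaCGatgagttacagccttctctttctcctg
Tmsb15l promoter: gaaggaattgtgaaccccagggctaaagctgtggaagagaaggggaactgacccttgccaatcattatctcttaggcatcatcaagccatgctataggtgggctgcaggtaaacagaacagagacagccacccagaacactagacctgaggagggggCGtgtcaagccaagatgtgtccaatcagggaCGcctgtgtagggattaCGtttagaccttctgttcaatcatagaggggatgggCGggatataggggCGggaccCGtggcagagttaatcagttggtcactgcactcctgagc
Arhgap24 peak centre: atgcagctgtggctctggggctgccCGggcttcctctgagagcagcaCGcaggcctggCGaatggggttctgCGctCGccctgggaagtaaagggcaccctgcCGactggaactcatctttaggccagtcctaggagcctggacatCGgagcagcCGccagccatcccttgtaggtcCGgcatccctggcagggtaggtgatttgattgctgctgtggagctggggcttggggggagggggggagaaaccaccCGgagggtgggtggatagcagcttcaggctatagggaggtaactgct
Peak centre nearest to Zbtb38: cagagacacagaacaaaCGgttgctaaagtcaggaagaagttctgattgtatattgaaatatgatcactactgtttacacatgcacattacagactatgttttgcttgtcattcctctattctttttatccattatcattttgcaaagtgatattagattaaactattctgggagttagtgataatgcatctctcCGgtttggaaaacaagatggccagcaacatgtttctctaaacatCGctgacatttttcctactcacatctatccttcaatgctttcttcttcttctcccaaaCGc
Hjurp promoter: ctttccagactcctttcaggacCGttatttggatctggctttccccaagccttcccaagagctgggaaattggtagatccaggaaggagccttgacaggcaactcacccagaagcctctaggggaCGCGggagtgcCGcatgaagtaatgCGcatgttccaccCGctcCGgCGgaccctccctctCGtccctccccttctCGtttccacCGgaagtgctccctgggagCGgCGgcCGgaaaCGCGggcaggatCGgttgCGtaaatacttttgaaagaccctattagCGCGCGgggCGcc

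The 6 stretches at crypts-only peaks held 4 CpGs (Dmbt1), 6 (Kcnn4), 5 (Olfm4, 1 of them inside the peak), 6 (Tmsb15l), 10 (Arhgap24) and 4 (near Zbtb38), against 22 in the Hjurp promoter. Corrected for base composition, the observed over expected CpG ratio ran from 0.205 at Dmbt1 to 0.417 near Zbtb38, and was 0.827 at Hjurp. A further stretch ends with a transfer RNA gene, n-TTagt4, which RefSeq places at chr13:21856021-21856094 on the plus strand. Transfer RNA genes are read by RNA polymerase III and carry H3K4me3 without being coding start sites. The crypts-only peak there (chr13:21855572-21856091) had a score of 43.7, and no H3K4me1 peak lay over it in crypts or villi. The stretch chr13:21855795-21856094 is printed with the transfer RNA gene in capitals.
n-TTagt4 and upstream sequence: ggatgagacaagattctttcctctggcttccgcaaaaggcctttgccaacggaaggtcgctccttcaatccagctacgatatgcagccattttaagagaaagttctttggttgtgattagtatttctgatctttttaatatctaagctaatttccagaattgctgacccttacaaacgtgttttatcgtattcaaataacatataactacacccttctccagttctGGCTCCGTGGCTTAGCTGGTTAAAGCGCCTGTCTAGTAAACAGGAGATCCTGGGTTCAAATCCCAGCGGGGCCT

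Crypts-only peaks were weak and narrow within the crypts list. The deposited score, read as −log10 of the peak caller's p-value, had a median of 14.35 (quartiles 11.8 and 19.1), against 225 for the 13944 shared peaks, those that overlapped villi H3K4me3 and no crypts H3K27me3. Their median width was 567 bp (quartiles 426 and 773, range 310 to 4388), against 1738 bp for shared peaks. No crypts-only peak scored above the median of the crypts list, and 903 of them (96.8%) lay within its lower quartile. Among crypts peaks without crypts H3K27me3, 48.1% of those with a score of 10 to 12 were crypts-only, of those of 20 to 30, 14.96%, and of those of 50 and above, 0.135%. Because score and membership went together, shared peaks with scores between the quartiles of the crypts-only peaks (810 peaks) are given below as a second reference, called shared peaks of the same scores. They match the 472 crypts-only peaks between these quartiles, for which position, H3K4me1 and CpG content are given as well.

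**Figure D1:**
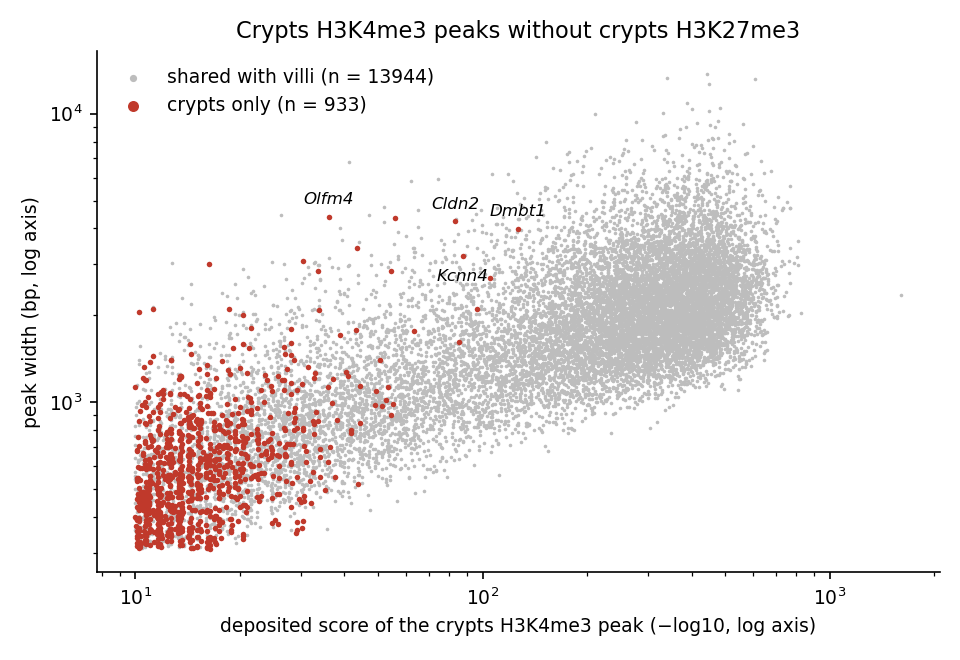
Each point is 1 crypts H3K4me3 peak without crypts H3K27me3, with its deposited score on the horizontal axis and its width on the vertical axis, both logarithmic. The 933 crypts-only peaks (red) crowd the low-score corner with a median score of 14.35 and a median width of 567 bp, and Dmbt1, Kcnn4, Cldn2 and Olfm4 are among the few wide or strong ones.

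The strongest crypts-only peak, score 126.5 over 3995 bp, covered the start site of Dmbt1 (chr7:131031915-131035909), which encodes a secreted scavenger-receptor glycoprotein of mucosal defence. The annotation also places a long Fgfr2 gene model on the other strand across this interval. Next among peaks within 1 kb of a coding start site came one of 96.45 over 2096 bp at Ifitm2, an interferon-induced membrane protein, shared with the overlapping gene model Gm45717. Kcnn4, the intermediate-conductance calcium-activated potassium channel, had a peak of 87.6 over 3198 bp at its start site and a second one of 13.0 over 964 bp farther into the gene. Utrn, the dystrophin relative utrophin, had a peak of 56.1 over 4345 bp at an internal start site, while another Utrn start site carried villi H3K4me3. Jaml, a junctional adhesion molecule, had 54.4 over 2839 bp, with villi H3K4me3 at another of its start sites. The remaining 10 of the 15 strongest start site peaks lay at Gm17783 (63.6), Naaladl2 (55.1), the asparaginase gene Aspg (51.3), the nuclear receptor coactivator gene Ncoa7 (49.25), Mcf2l (44.4), the cation-chloride cotransporter family gene Slc12a8 (43.4), 2900026A02Rik (43.1), Tmsb15l with its near-identical neighbours Tmsb15b1 and Tmsb15b2 (41.9), the epsin gene Epn3 (40.4) and Arhgap24 (38.1). Of these, Ncoa7, Mcf2l, 2900026A02Rik and Arhgap24 also had villi H3K4me3 within 1 kb of a start site. Reads from the Tmsb15 copies may not be assignable to 1 of them, so that peak is uncertain.

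Away from coding start sites, the strongest peak (score 105.3, chr9:96785967-96788657) lay between genes, 33136 bp from the nearest coding start site, that of Zbtb38, a zinc finger protein that binds methylated DNA. A peak of 85.4 lay 2692 bp from the start site of the peroxisome gene Pex10. The third, of 83.4 over 4246 bp (chrX:139808392-139812637), lay in the last part of Cldn2, a claudin that forms cation-selective pores in tight junctions, 2311 bp from its nearest coding start site. The other distal peaks among the strongest 10 were nearest to Hexim1 (54.5), Cables1 (53.5), Tnfaip3 (52.7), Tmem107 (50.7), N4bp2l1 (48.9), Vdac1 (44.3) and Hist1h2br (43.7), the last being the peak at the transfer RNA gene. Distances to these 7 start sites ran from 1843 bp (N4bp2l1) to 107807 bp (Cables1). Of all crypts-only peaks, 4 overlapped a RefSeq transfer RNA gene (0.429%), against a background of 0.793% over all crypts peaks without crypts H3K27me3.

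By width, the first was Olfm4 (chr14:80000308-80004695, 4388 bp, score 36.1), followed by Utrn, Cldn2, Dmbt1 and Slc12a8, whose peak measured 3423 bp. Olfm4 encodes a secreted glycoprotein used as a marker of intestinal stem cells. Its peak began 6 bp downstream of a coding start site, and no villi H3K4me3 peak lay within 1 kb of any Olfm4 start site. H3K4me1 in crypts was called over its upstream edge (1222 bp) and inside its downstream part (1981 bp), and at nearly the same places in villi (778 and 1453 bp). In villi an H3K27me3 peak of 1956 bp, with a score of 10.6, overlapped its downstream end.

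At Dmbt1 a single crypts H3K4me1 peak of 14219 bp spanned the H3K4me3 peak, and villi had 3 H3K4me1 peaks of 4088, 1590 and 7496 bp over the same interval. Kcnn4 showed the reverse. There crypts H3K4me1 was split into peaks of 879 and 3907 bp that left a gap between them, inside the H3K4me3 peak and downstream of the start site, whereas villi had a single H3K4me1 peak of 4774 bp across it. At Cldn2 crypts H3K4me1 flanked the H3K4me3 peak (3423 and 4010 bp) with only its edges covered, and a villi H3K4me1 peak of 2208 bp reached farther into it. At Slc12a8 the crypts H3K4me1 peak at the start site was 2801 bp wide and the villi peak 1399 bp, and a shared H3K4me3 peak of 507 bp lay within 5 kb downstream.

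**Figure D2:**
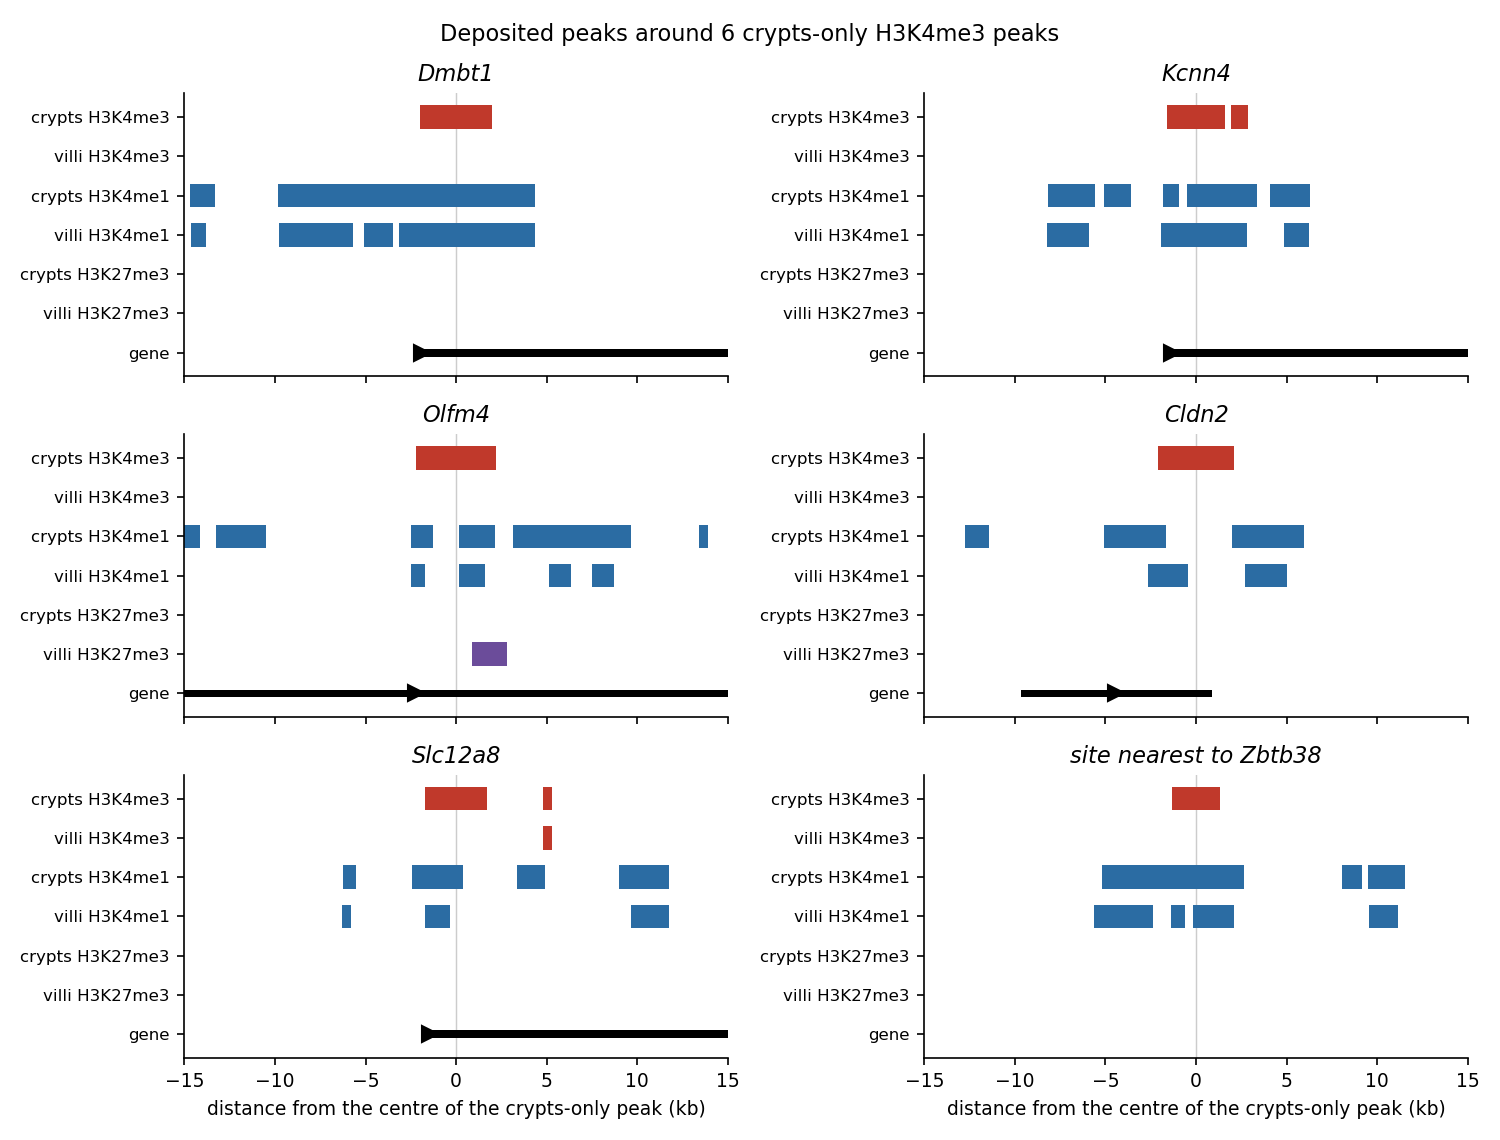
Deposited peaks of 3 marks in both compartments around 6 crypts-only H3K4me3 peaks, drawn by distance in kb from the peak centre. The gene is a black line and its nearest coding start site an arrowhead, except in the panel nearest to Zbtb38, where the gene lies outside the window. The villi H3K4me3 row is empty except for the peak near Slc12a8, villi H3K4me1 is present at all 6 sites, and villi H3K27me3 appears only at Olfm4.

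A protein-coding start site lay within 1 kb of 190 crypts-only peaks (20.4%, 95% Wilson interval 17.9 to 23.1), against a background of 72.8% over all crypts H3K4me3 peaks without crypts H3K27me3. For 120 of them (12.9%) the start site was inside the peak. A further 113 (12.1%) lay near the start site of another gene or transcript class only, and 630 (67.5%, 64.5 to 70.5) had no annotated start site within 1 kb. By its centre, 114 crypts-only peaks fell in an exon of a coding gene, 391 (41.9%) in an intron, 74 in another class of gene and 354 (37.9%) between genes. Shared peaks of the same scores had nearly the same placement: 17.2% lay at coding start sites and 72.2% had no start site within 1 kb, against 18.01% and 69.9% of the 472 crypts-only peaks between the quartiles. These intervals reflect counting error alone and treat peaks as independent, which close neighbours are not.

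The share at coding start sites was larger in each higher score band of the crypts-only peaks. It was 11.8% for scores of 10 to 12, 20.9% for 15 to 20, 32.4% for 20 to 30 and 41.7% for 30 to 50. The shared peaks gave 18.9%, 15.3%, 26.6% and 35.9% in the same bands. At 50 and above the groups stood apart, with 53.3% of 15 crypts-only peaks and 89.4% of the shared peaks at a coding start site. The shared peaks of that band reached much higher scores, and within it score was not held equal.

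**Figure D3:**
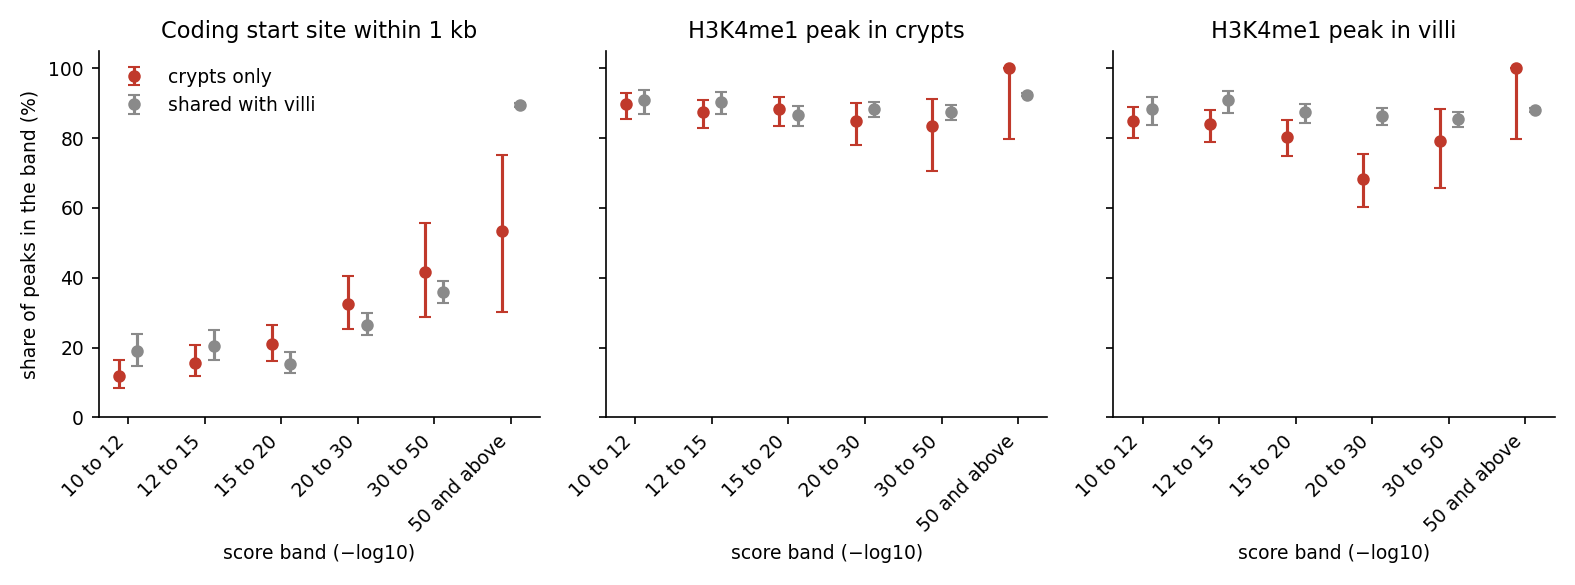
Share of peaks in 6 bands of the deposited score that lie within 1 kb of a coding start site (left), overlap crypts H3K4me1 (middle) or overlap villi H3K4me1 (right), for crypts-only (red) and shared (grey) peaks. Points are shares and bars 95% Wilson intervals. Crypts-only peaks of score 20 to 30 overlap villi H3K4me1 in 68.3% of cases, below the 86.3% of shared peaks in that band, but in the band of 30 to 50 the shares are 79.2% and 85.5%, and all 15 crypts-only peaks of 50 and above overlap it, against 88.0% of shared ones.

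Most crypts-only H3K4me3 sites carried H3K4me1 in both compartments. A crypts H3K4me1 peak overlapped 820 of the 933 (87.9%, 85.6 to 89.8; background 91.3%), and a villi H3K4me1 peak overlapped 756 (81.0%, 78.4 to 83.4; background 87.4%). Both were present at 730 sites (78.2%; background 83.9%), neither at 87 (9.33%; background 5.18%), crypts H3K4me1 alone at 90 (9.65%, 7.91 to 11.7; background 7.47%) and villi H3K4me1 alone at 26 (2.79%, 1.91 to 4.05; background 3.49%). So 756 sites without a villi H3K4me3 peak did have a villi H3K4me1 peak. Among shared peaks of the same scores, H3K4me1 was found in crypts alone at 30 of 810 (3.70%, 2.61 to 5.24) and in villi alone at 29 (3.58%). The shares with crypts H3K4me1 were close (87.9% and 89.4%), and those with villi H3K4me1 were 81.0% and 89.3%. The intervals count peaks and not libraries, and the shared peaks were chosen by a villi H3K4me3 call, so that this difference was not tested. The 472 crypts-only peaks between the quartiles had crypts H3K4me1 in 87.1%, villi H3K4me1 in 80.9% (77.1 to 84.2), crypts H3K4me1 alone at 44 (9.32%, 7.02 to 12.3) and villi H3K4me1 alone at 15 (3.18%).

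The reverse set was examined for comparison. Of 1357 villi H3K4me3 peaks with no crypts H3K4me3 and no villi H3K27me3, 34 (2.51%, 1.80 to 3.48) had H3K4me1 in crypts alone and 53 (3.91%, 3.00 to 5.07) in villi alone. Among all shared peaks these were 1021 (7.32%) in crypts alone and 493 (3.54%) in villi alone, so that H3K4me1 in crypts alone was the more frequent there as well. By score the difference from shared peaks varied. Of crypts-only peaks of score 20 to 30, 28 of 139 (20.1%, 14.3 to 27.6) had H3K4me1 in crypts alone, against 6.835% of shared peaks. At 30 and above it was 4 of 63 (6.35%, 2.50 to 15.2), against 7.63%, with few crypts-only peaks and with score not held equal. This comparison was not tested, since each compartment has 1 library per mark.

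These shares differed by position. At coding start sites, 125 of 190 crypts-only peaks (65.8%) had H3K4me1 in both compartments, 21 (11.1%) in crypts alone, 11 (5.79%) in villi alone and 33 (17.4%, 12.6 to 23.4) in neither. For shared peaks of the same scores there, the shares were 76.3% in both, 4.32% in crypts alone, 7.19% in villi alone and 12.2% (7.78 to 18.7) in neither, and for all shared peaks there 84.9%, 7.34%, 3.535% and 4.24%. Without a start site within 1 kb, 522 of 630 (82.9%) had it in both, 57 (9.05%, 7.05 to 11.5) in crypts alone, 12 (1.905%) in villi alone and 39 (6.19%, 4.56 to 8.35) in neither. For shared peaks of the same scores and with no start site nearby, the share with crypts H3K4me1 alone was 3.25% (2.09 to 5.02), and for all shared peaks of that position 6.90% (172 of 2492). Villi H3K4me1 alone and neither were near their background at this position, with 2.735% and 5.64% for shared peaks of the same scores and 3.11% and 5.96% for all crypts peaks without crypts H3K27me3. On the X chromosome, of 22 crypts-only peaks, H3K4me1 was in both compartments at 4, in crypts alone at 8, in villi alone at 1 and in neither at 9. Of all shared peaks on X, both were found at 76 of 401 and crypts alone at 115, and of the few of the same scores, both at 6 of 16 and crypts alone at 2. On the autosomes 82 of 911 crypts-only peaks (9.001%) had H3K4me1 in crypts alone, against 28 of 791 (3.54%) shared peaks of the same scores and 905 of 13536 (6.69%) of all shared peaks.

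**Figure D4:**
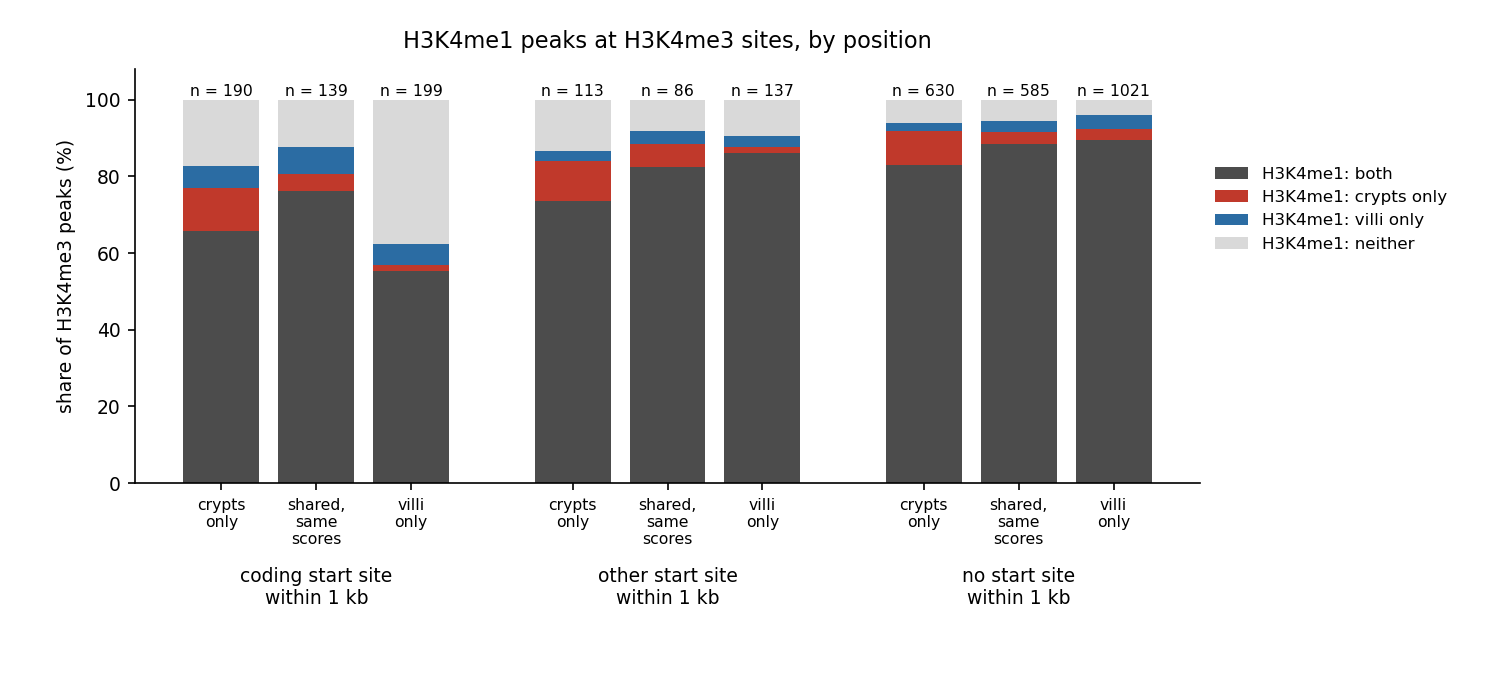
Stacked bars give the share of H3K4me3 peaks with H3K4me1 in both compartments, in crypts only, in villi only or in neither, for crypts-only peaks, shared peaks of the same scores and villi-only peaks in 3 position classes (n above each bar). The red segment, H3K4me1 in crypts only, is 11.1%, 10.6% and 9.05% of the crypts-only peaks from left to right, and 4.32%, 5.81% and 3.25% of the shared peaks of the same scores.

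Where both compartments had H3K4me1, its peaks were narrower in villi at most crypts-only sites. The summed width of the overlapping H3K4me1 peaks had a median of 2176 bp in crypts (820 sites) and 1748 bp in villi (756 sites). Over the 730 sites with both, the log2 ratio of villi to crypts width had a median of −0.19 (quartiles −0.52 and 0.02), and villi were narrower at 529 (72.5%, 69.1 to 75.6). Between the score quartiles the median of the crypts-only sites was −0.15 (367 sites), and −0.10 at coding start sites (52 sites). Shared peaks of the same scores had a median of −0.02 and villi were narrower at 372 of 694 (53.6%, 49.9 to 57.3). For villi-only peaks the median was 0.04, and villi were narrower at 505 of 1142 (44.2%). A difference of more than 1.5-fold towards narrower villi H3K4me1 was seen at 164 crypts-only sites (22.5%), against 18.04% of all shared sites and 15.6% of those of the same scores. One towards wider was seen at 37 (5.07%), against 12.2% and 9.08%. The width of a called peak depends on library depth as well as on the mark, the depths are unknown, and the part of depth in these differences was not tested.

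Among sites with H3K4me1 in crypts alone, the strongest H3K4me3 peaks were those at Tmsb15l (41.9), between genes 32906 bp from Akap1 (32.7), in Gm26992 on X (32.4), in an intron of the aldehyde dehydrogenase gene Aldh2 (30.7) and in an intron of Maml3, a Notch coactivator (29.9). At Aldh2 and Maml3 a villi H3K4me1 peak lay within 1 kb of the H3K4me3 peak without overlapping it, inside the stretch covered by crypts H3K4me1. The strongest with H3K4me1 in villi alone were at Arhgap24 (38.1), the prolyl isomerase gene Fkbp9 (33.9), the transcription factor gene Sox5 (28.0), a pseudogene far from Zfp619 (24.6) and Egflam (22.3), and 4 of these 5 covered a coding start site. With H3K4me1 in neither, they were the transfer RNA gene site (43.7), one 20079 bp from Atp2a3 (37.5), one in an intron of Rnf157 (35.1), one 6373 bp from Dhx37 (30.6) and one at the overlapping 9030025P20Rik and Gm3417 (30.4).

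Villi H3K27me3 overlapped 39 crypts-only peaks (4.18%, 3.07 to 5.66; background 2.76%). At coding start sites it overlapped 21 of 190 (11.1%), close to the 14 of 139 (10.1%) among shared peaks of the same scores there and above the 2.88% of all crypts peaks without crypts H3K27me3 there. With no start site nearby it overlapped 18 of 630 (2.86%), against 2.27% of all such crypts peaks and 1.54% of shared ones of the same scores. The strongest H3K4me3 peaks among the 39 lay at Mcf2l (44.4), Olfm4 (36.1), Dok7, an adaptor of receptor tyrosine kinase signalling (35.9), the urea transporter gene Slc14a1 (30.4) and Greb1 (28.8). Each of these 5 also had H3K4me1 in both compartments. H3K9me3, a mark of constitutive heterochromatin, overlapped 2 crypts-only peaks in crypts and 1 in villi, of 9 and 7 among all 14877 crypts peaks without crypts H3K27me3.

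At the level of genes, 195 protein-coding genes had a crypts-only peak within 1 kb of a start site, 1.55% of the 12598 genes with any crypts H3K4me3 peak there. For 63 of them a villi H3K4me3 peak also lay within 1 kb of a start site of the gene, the same one or another, and 132 (67.7%) had none, against 232 of all 12598 (1.84%). The rule, which leaves out peaks that overlap villi H3K4me3, largely fixes this share, and with a window of 5 kb it was 42.65% of 340 genes. Of the 132, 22 (16.7%) had villi H3K27me3 at a start site, against 25 of 141 genes (17.7%) with a shared peak of the same scores, 114 of the 232 (49.1%) and 13.3% of all 12598. The last 2 include genes with crypts H3K27me3, which the rule leaves out of the crypts-only peaks. Examples without villi H3K4me3, named after their values were seen, include the transmembrane mucin Muc4 (37.1), the antiviral membrane protein Ifitm3 (27.5), the endoplasmic reticulum stress sensor Ern2 (18.4), the secretory-cell transcription factor Bhlha15 (17.2) and the antimicrobial lectin Reg3g (10.2). Ern2 and Msantd3 each had 2 crypts-only peaks at start sites. H3K4me1 at the Ern2 peak of 18.4 was called in crypts alone.

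Counts for marker genes of intestinal cell types stand beside the 195 of 12598 genes with crypts H3K4me3 (1.55%) that had a crypts-only peak at a start site. All 22 intestinal stem cell genes had crypts H3K4me3 at a start site (20 in villi), and 5 had a crypts-only peak: Olfm4 (36.1), the water channel gene Aqp4 (28.7), the Polycomb gene Bmi1 (20.4), Ephb3, a receptor that positions cells along the crypt axis (18.4), and Hopx. Olfm4 and Aqp4 had no villi H3K4me3 at any start site, and Bmi1, Ephb3 and Hopx had it within 1 kb of a start site, the same one or another. The Bmi1 peak, 343 bp wide, lay in an exon of the neighbouring gene Commd3, 627 bp from the nearest Bmi1 start site, where H3K4me3 was called in crypts (72.25) and in villi (81.4). Crypts-only peaks away from coding start sites lay nearest to 6 more genes of this list, Axin2, Lrig1, Prom1, Rgmb, Smoc2 and Sox9. The same tally was 5 for the Wnt and Notch list, 2 each for the enterocyte, T cell and fibroblast lists and 1 each for 6 others. It was 0 for the Paneth, tuft and neuron lists, and 678 of 21842 (3.10%) over all coding genes. That background includes genes without crypts H3K4me3, unlike the stem cell list, and a nearest gene can lie far from its peak. Sox9, a transcription factor of the crypt base, was nearest to peaks at 28343 bp (33.1), 58052 bp (16.4) and 304699 bp (16.0) from its start site. Of 36 Wnt and Notch genes, 33 had crypts H3K4me3 (villi 33). In this list 1 gene, the receptor gene Notch3 (18.4), had a crypts-only peak, without villi H3K4me3 and with villi H3K27me3. Of the Paneth cell list, 2 of 17 annotated genes had crypts H3K4me3 (villi 2) and the other annotated ones had none in crypts. The protease inhibitor gene Spink4 (17.7), 1 of the 2 with crypts H3K4me3, had a crypts-only peak, also without villi H3K4me3 and with villi H3K27me3 at a start site. Of 12 goblet cell genes, 6 had crypts H3K4me3 (villi 6) and 1, the chemokine gene Ccl6 (11.25), had a crypts-only peak. Of 20 endothelial genes these were 4 (villi 4) and 1, the secreted factor gene Egfl7 (19.4).

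No crypts-only start site peak was found for 40 proliferation genes and 25 enterocyte genes, of which 40 and 23 had crypts H3K4me3 and as many had villi H3K4me3. Nor was one found for 18 tuft and 29 enteroendocrine genes, of which 3 (villi 3) and 9 (villi 11) had crypts H3K4me3. The lists of cells outside the epithelium gave none either, apart from Egfl7. Crypts H3K4me3 was present at 5 of 30 T cell and intraepithelial lymphocyte genes (villi 14), 8 of 22 B and plasma cell genes (villi 8), 2 of 22 myeloid genes (villi 3), 5 of 32 fibroblast and smooth muscle genes (villi 6), and 4 of 20 enteric neuron and glia genes (villi 4).

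CpG content was low at crypts-only peaks. In the 300 bp at the peak centre, the observed over expected CpG ratio had a median of 0.38, against 0.65 for shared peaks and 0.35 for shared peaks of the same scores. A ratio of at least 0.6 was reached by 157 crypts-only peaks (16.8%, against 56.4% and 14.8%), and by 17.2% of those between the score quartiles. By position the median was 0.43 at coding start sites and 0.37 with no start site nearby. For 146 of the 195 genes the RefSeq table held a promoter. Of the 147 promoters that overlapped a crypts-only peak, 25 (17.0%) reached a ratio of 0.6, against 76.2% of 11881 promoters under shared peaks and 35.8% of all 32851 in the table. The median ratios were 0.37, 0.79 and 0.38, so that by median the crypts-only promoters were close to all promoters. These promoters were not matched for score.

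**Figure D5:**
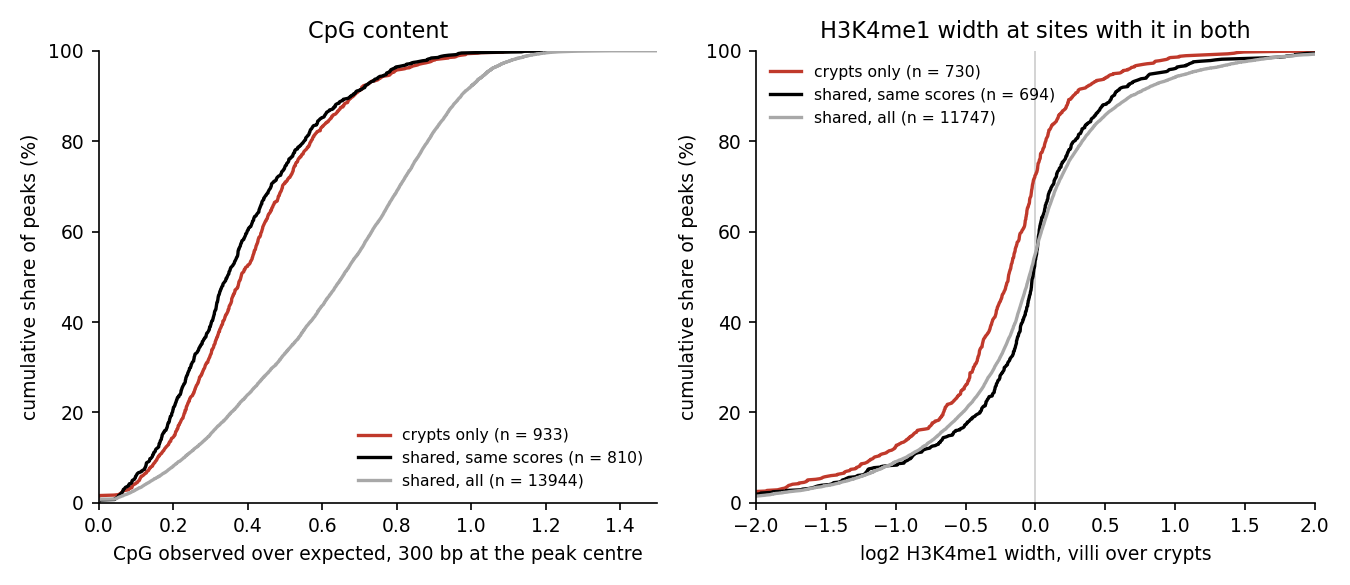
Cumulative shares of peaks by CpG observed over expected ratio (left) and by the log2 ratio of H3K4me1 width in villi to that in crypts at sites with both (right). On the left the crypts-only curve runs beside that of shared peaks of the same scores (medians 0.38 and 0.35), and on the right it is shifted to the left of both shared curves (medians −0.19, −0.02 and −0.05).

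Short motifs were counted on both strands in the same 300 bp, and none of the 8 strings contains another, although matches can share end bases. The TCF/LEF string CTTTGAT, recognised by the effectors of Wnt signalling, occurred in 44 crypts-only peaks (4.72%), in 2.55% of shared peaks, in 4.20% of shared peaks of the same scores and in 3.73% of all promoters of the table. The GATA string AGATAAG occurred in 39 (4.18%), against 2.17%, 5.68% and 3.04%. The SP/KLF string GGGCGGGG was found in 5.57%, against 14.1%, 8.02% and 17.6%, and the ETS string CCGGAAGT in 1.18%, against 3.005%, 1.11% and 3.89%. At coding start sites GGGCGGGG occurred in 15 of 190 crypts-only peaks (7.89%, 4.84 to 12.6), against 15.5% of shared peaks there and 25 of 139 (17.99%, 12.5 to 25.2) of those of the same scores. The HNF4 string CAAAGTCCA (8 peaks), the CTCF core string AGGGGGCNC (12), the NFY string GATTGGC (21) and the CDX/HOX-like string TTTATGGC (6) occurred in 0.857%, 1.29%, 2.25% and 0.643% of crypts-only peaks. Shared peaks of the same scores held them in 1.235%, 1.48%, 2.099% and 1.36%, and all promoters in 0.475%, 2.28%, 6.83% and 0.6545%. These are counts of letters and not of bound factors.

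The edges of the selection were as follows. The crypts-only peaks nearest to a villi H3K4me3 peak lay 9 bp (nearest gene Rab11fip1), 222 bp (Gpatch8), 262 bp (Camk2d), 287 bp (Ywhaq) and 310 bp (Rdh7) from it. The peaks just left out shared 195, 225, 251, 261 and 262 bp with villi peaks. A villi H3K4me3 peak lay within 1 kb of 45 crypts-only peaks and within 5 kb of 202, and the median gap was 18448 bp. Within 1 kb of 47 crypts-only peaks lay another crypts H3K4me3 peak that was not one of them. The numbers in the villi peak names ran in genome order to 18333, of which 16977 were listed. The villi peaks on either side of 614 crypts-only peaks (65.8%) bore consecutive numbers, which leaves no unlisted villi call there. At 275 (29.5%), 41 (4.39%) and 3 (0.32%) others, 1, 2 or 3 numbered calls between the flanking peaks were not listed. Over the whole villi list 1356 numbers had no listed peak. An unlisted call could lie on the crypts-only site itself or elsewhere between its flanks, and which of these held was not tested. Crypts-only peaks were spread over the chromosomes, with none among the 7 crypts peaks on Y and, on the others, from 4.61% of the crypts list on chromosome 5 to 6.72% on chromosome 18.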

How the data were processed

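Peak lists of 4 marks in crypts and villi were used (8 lists, 1 library each). Per the labels and the study's methods, the authors aligned reads with Bowtie 1.1.2 to mm10, with dm6 for the spiked-in Drosophila chromatin, and called peaks against input with MACS2 2.1.1 (deepTools 3.1 is also named in the submitters' processing notes). The score deposited by the authors was taken as −log10 of the p-value, on which the authors set their MACS2 limit for these marks, is at least 10 in every list used, and was compared only within a list. The lists hold calls without read counts, so depth is unknown, and the spike-in does not enter them. The H3K9me2 lists and the inputs were not analysed here.

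Intervals were compared in Python 3.11 (pandas 2.3.3, numpy 2.4.6, scipy 1.17.1), sharing 1 bp or more counting as overlap. Coding start sites were those of GENCODE M21 protein-coding transcripts, with a window of 1 kb. Sequences were read with pysam 0.24.0 from RefSeq GRCm38.p6 (300 bp windows), and the printed promoters were checked against that genome. Shares have 95% Wilson intervals for counting error. Tested on simulated data, the overlap routine found 3000 of 3000 planted overlaps among 5000 peaks with 0 false ones.

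The peaks and the 14 gene lists were chosen with earlier results of these data known. Peaks were named by rule: the 15 highest-scoring within 1 kb of a coding start site, the 10 highest farther away, the 5 widest, every listed gene with a peak at a start site, and the 5 highest with H3K4me1 in crypts only, villi only or neither and with villi H3K27me3. Genes outside it are named as chosen after their values were seen, as the nearest gene of a list, at the edges of the selection, for holding 2 peaks at start sites or as the shared example. No replicate exists, so that no library could be left out. Alternatives to the overlap, the window and the score limit were run.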

Additional observations from a re-analysis of the deposited data

How the results depend on the processing

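No paired analysis was possible because each compartment has 1 library per mark. Of 53 alternative values, 36 stayed within the Wilson interval of the share given in the report, or within 1.5-fold of the count, and 17 did not. Counting a peak as shared only with a reciprocal overlap of 50% gave 1509 crypts-only peaks, with 29.0% at coding start sites, villi H3K4me1 at 85.5%, crypts H3K4me1 at 90.4% and crypts H3K4me1 alone at 7.29%. A score of at least 20 left 202 peaks, with 36.1% at coding start sites, villi H3K4me1 at 73.3% and crypts H3K4me1 alone at 15.8%. Requiring consecutive villi numbers left 614 peaks. The share at coding start sites was 26.7% with crypts H3K27me3 peaks kept, 12.9% for start sites inside the peak, 33.8% within 5 kb and 32.5% for transcripts of all gene classes. H3K4me1 within 1 kb raised the villi share to 83.5%, and villi H3K27me3 within 1 kb of the peak was 6.00%. Within 5 kb, 42.65% of 340 genes lacked villi H3K4me3. The windows and score limits change which peaks or sites are counted by construction. Leaving out chromosome X, merging neighbouring peaks, requiring 1 kb to the next villi peak and leaving out villi H3K27me3 kept the 5 values recomputed under them (the count of peaks, the share at coding start sites, and H3K4me1 in villi, in crypts and in crypts alone) in that range. Most of the 933 peaks score under 20, near the limit of 10, so that a site just under it in villi counts as absent, and how many of the 933 are such sites was not tested.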
